A study of Mus musculus with 10 samples.

Results

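The clustered histone genes encode the linker histone H1 and the core histones H2A, H2B, H3 and H4 from tandem arrays. Members were the rows of the deposited expression table whose symbol starts with Hist1h, Hist2h, Hist3h or Hist4h and goes on with one of these classes. The rule found 68 of 23479 rows: 6 H1, 18 H2A, 19 H2B, 12 H3 and 13 H4 genes. Of these, 54 lie in the Hist1 cluster on mouse chromosome 13, 10 in the Hist2 cluster on chromosome 3, 3 in the Hist3 cluster on chromosome 11, and 1, Hist4h4, on chromosome 6. Hist3h2bb-ps is annotated as a processed pseudogene and the other 67 as protein coding.

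RNA was sequenced from 4T1-T, a clone grown from 1 cell of the mouse mammary carcinoma line 4T1, in a series on breast tumour heterogeneity and vascular mimicry. Each of 5 lines of the clone had been infected with a short hairpin RNA: shRenilla, the control against a luciferase gene that mouse cells lack, shSerpine2-1 and shSerpine2-2 against the secreted protease inhibitor Serpine2, and shSlpi-1 and shSlpi-2 against the secreted protease inhibitor Slpi. All lines, the control included, had been infected and were kept in the same serum-containing medium, and they stem from 1 clone. Each line has 2 libraries, A and B, which no label describes as separate cultures, so the p-values below measure only the spread between these libraries. Depth ranged from 15877431 to 24026620 reads. Serpine2 measured 3256 and 3145 normalized counts in shRenilla, 128 and 139 in shSerpine2-1, and 489 and 514 in shSerpine2-2, and Slpi measured 1189 and 1313 in shRenilla, 145 and 147 in shSlpi-1, and 60.9 and 75.8 in shSlpi-2. All 8 epithelial markers passed the filter on low values, against 1 of 7 endothelial, 1 of 7 leukocyte and 1 of 7 fibroblast markers. Markers moved with the lines: 4, 7, 5 and 8 of 8 epithelial markers rose against shRenilla with shSerpine2-1, shSerpine2-2, shSlpi-1 and shSlpi-2 (medians 0.17, 0.37, 0.44 and 0.64), and 0 fell. The summed fibroblast markers were highest in shRenilla, at 905 and 888 normalized counts, and between 466 and 776 in the knockdown libraries, nearly all of it from Pdgfra, with Col3a1 and Lum at or near 0. The summed endothelial markers were highest in shSlpi-2, at 84.1 and 151, and between 31.6 and 69.7 elsewhere, and the leukocyte markers summed to between 124 and 175. The part of these markers in the histone results was not tested. Both shSlpi-2 libraries stood apart. They differed from each other by a chi-square of 10.9 per degree of freedom, against 1.55 to 2.76 within the other lines, and the ribosomal RNA precursor Rn45s held 6.88% and 6.91% of their reads, against 0.881% to 1.96% elsewhere.

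Replication-dependent histone mRNAs are made mainly in S phase, when new DNA has to be packed into nucleosomes. An octamer of H2A, H2B, H3 and H4 forms the core of the nucleosome, and H1 binds the linker DNA. Most of these mRNAs have no introns and end in a conserved stem-loop in place of a poly(A) tail. The stem-loop is bound by the protein Slbp. The cDNA kit used here primes total RNA with random as well as oligo(dT) primers, so mRNAs without a tail can enter the libraries.

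The stem-loop is shown for 6 members because it was found in most members and the membership rule did not use it. In GENCODE M21 transcripts of build GRCm38, the motif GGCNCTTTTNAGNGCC (searched on the transcript strand, N being any base) was found in 42 of 68 members: 4 of 6 H1, 11 of 18 H2A, 10 of 19 H2B, 8 of 12 H3 and 9 of 13 H4 genes. Among all 55341 gene names in the transcript set, 47 (0.0849%) held it. The 5 names outside the family were Gm20634, Gm44648, H2afx, H2bfm and Trim17. No match says only that the letters are not in the annotated transcript, which for Hist1h2ak is 393 bases long. Each line gives the transcript strand from 5′ to 3′ with the stem-loop in capitals.
Hist1h1e: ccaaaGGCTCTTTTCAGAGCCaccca
Hist1h2bm: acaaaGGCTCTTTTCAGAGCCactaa
Hist2h2ac: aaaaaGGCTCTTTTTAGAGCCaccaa
Hist2h3c2: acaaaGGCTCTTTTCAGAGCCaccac
Hist1h4d: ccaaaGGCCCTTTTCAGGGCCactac
Hist1h4i: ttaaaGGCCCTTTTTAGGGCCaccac
The form in Hist1h1e, Hist1h2bm and Hist2h3c2 was the most frequent, in 26 members. The form in Hist1h4d, which differs in the stem, was found in 7 members, and that of Hist1h4i in 2. Hist2h2ac was the only member with its form, which has the same stem as the most frequent one and another loop.

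Promoters are shown for 3 members of different classes that are described below, since most members differed in the same direction between lines. RefSeq windows of build GRCm38.p6, from 250 bases before to 50 bases after the start, matched 61 of 68 members through their older symbols. Capitals mark matches on either strand to the motifs whose shares follow the sequences, so that CCAAT also appears as its reverse complement. The Hist1h1e window is chr13:23622509-23622808 on the minus strand, that of Hist1h2ak is chr13:21753863-21754162 on the minus strand, and that of Hist1h4d is chr13:23581318-23581617 on the plus strand.
Hist1h1e: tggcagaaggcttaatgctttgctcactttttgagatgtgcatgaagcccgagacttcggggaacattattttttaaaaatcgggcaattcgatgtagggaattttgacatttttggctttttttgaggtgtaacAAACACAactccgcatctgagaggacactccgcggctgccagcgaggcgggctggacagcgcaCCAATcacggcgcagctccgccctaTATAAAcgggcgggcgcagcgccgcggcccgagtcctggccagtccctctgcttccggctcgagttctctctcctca
Hist1h2ak: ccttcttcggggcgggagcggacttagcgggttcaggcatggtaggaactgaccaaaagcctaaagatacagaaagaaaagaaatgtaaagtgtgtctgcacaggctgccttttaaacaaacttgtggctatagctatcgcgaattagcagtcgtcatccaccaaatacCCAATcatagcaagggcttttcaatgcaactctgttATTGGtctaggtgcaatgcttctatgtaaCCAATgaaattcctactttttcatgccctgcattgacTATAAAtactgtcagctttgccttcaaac
Hist1h4d: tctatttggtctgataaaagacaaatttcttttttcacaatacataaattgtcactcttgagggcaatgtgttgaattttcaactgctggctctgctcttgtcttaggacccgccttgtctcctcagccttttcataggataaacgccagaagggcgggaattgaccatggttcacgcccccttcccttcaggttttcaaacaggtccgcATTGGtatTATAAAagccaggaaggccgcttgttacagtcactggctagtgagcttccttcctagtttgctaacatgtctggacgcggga
CCAAT was present in all 6 H1, all 17 H2A, all 16 H2B and all 10 H3 windows but in 3 of 12 H4 windows, against 37.4% of all 32851 RefSeq promoter windows. TATAAA was in 57.4% of member windows and in 13.6% of all windows. AAACACA was in 5 of 6 H1 windows against 7.18% of all windows. The octamer ATTTGCAT was in 7 of 17 H2A and 6 of 16 H2B windows, in no H1, H3 or H4 window, and in 1.74% of all windows. Windows of neighbouring H2A and H2B genes on opposite strands can overlap, as for Hist1h2aa and Hist1h2ba. The same site can then count in both classes, so the H2A and H2B shares are not independent. Both strands were searched, matches of different motifs overlapped in 0 of the 61 member windows, and a match is a description of the sequence, not of binding.

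Together the 68 members took between 0.120% and 0.201% of the reads of a library. Values below are normalized counts, which is to say counts corrected for depth, recovered from the deposited table. H2B held 28.2% to 32.6% of the summed histone counts, H1 27.3% to 30.3%, H4 17.4% to 19.5%, H3 10.4% to 12.7% and H2A 10.4% to 11.9%. Single genes carried much of a class. Per kilobase of RefSeq gene span in shRenilla, the level of Hist1h4d was 10581 normalized counts, that of Hist1h1e 6101, of Hist1h2bl 3460 and of Hist1h2bm 2949. Among the tested members with a short span it went down to 78.8 for Hist4h4. Members with long spans, such as Hist1h2bc, Hist1h2be and Hist1h2bp at 8282, 37455 and 14079 bases, were left out of this scale. The RefSeq span of Hist1h4d is 402 bases and its GENCODE transcript 1138, and for Hist1h1e these lengths are 782 and 1930. The GENCODE transcript of Hist4h4 has 2863 bases. Ranks on this scale thus depend on the annotation. Of the 68 members, 56 had a mean of at least 10 normalized counts and were tested among 12299 genes. Of the 12 others, 6 (Hist1h1t, Hist1h2ap, Hist1h2bq, Hist1h2br, Hist2h2aa1 and Hist2h2aa2) had no read in any library, which allows up to 3 reads each, and 6 had means of at most 4.00. Copies of these genes are near identical, and reads that match several copies may be lost or split: no window of 76 bases, the read length, was unique to Hist2h3b, Hist2h3c1, Hist2h2bb, Hist2h2aa1 or Hist2h2aa2 among GENCODE transcripts, while over 50% of windows were unique in 37 members.

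Histone counts were lower in shSerpine2-1, shSerpine2-2 and shSlpi-1 than in shRenilla in all 5 classes, and higher in shSlpi-2 library B than in any other library. The 68 members summed to 29016 normalized counts in shRenilla A and 32694 in B. They summed to 25179 and 25581 in shSerpine2-1, 24241 and 24038 in shSerpine2-2, and 26207 and 21673 in shSlpi-1. In shSlpi-2 the sums were 28837 in A and 38649 in B. The 6 libraries of the first 3 knockdown lines thus lay below both shRenilla libraries, whereas the shSlpi-2 libraries lay on either side of them. The sums were 0.823 times the control with shSerpine2-1, 0.782 times with shSerpine2-2, 0.776 times with shSlpi-1 and 1.09 times with shSlpi-2. All 4 ratios use the same 2 control libraries. In bulk RNA fewer cells in S phase and less histone RNA per cell cannot be told apart. Scaled to the reads of each library other than those of Rn45s, the ratios were 0.815, 0.780, 0.791 and 1.10.

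**Figure D1:**
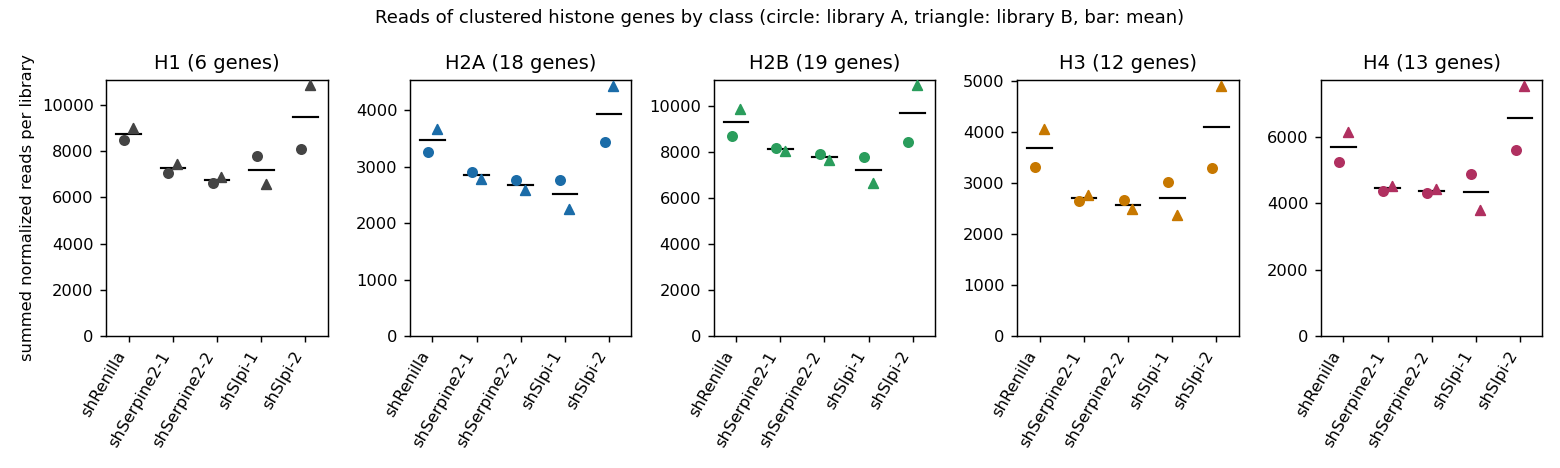
Summed normalized counts of each histone class (vertical axis, from 0) in the 5 lines (horizontal axis), with library A as a circle, library B as a triangle and the mean as a bar. In each class the 6 libraries of shSerpine2-1, shSerpine2-2 and shSlpi-1 lie below both shRenilla libraries, and shSlpi-2 library B is the highest.

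In each class the means of shSerpine2-1, shSerpine2-2 and shSlpi-1 were below that of shRenilla, and the mean of shSlpi-2 was above it. H1 summed to 8731 ± 367 (SD, n = 2) in shRenilla, 7258 ± 252 in shSerpine2-1, 6750 ± 201 in shSerpine2-2, 7176 ± 847 in shSlpi-1 and 9485 ± 1970 in shSlpi-2. H2A summed to 3472 ± 284 in shRenilla, 2854 ± 86.0 and 2678 ± 130 with the Serpine2 hairpins, 2512 ± 371 with shSlpi-1 and 3934 ± 708 with shSlpi-2. For H2B the sums were 9276 ± 810 in shRenilla, 8105 ± 72.9 and 7765 ± 186 with the Serpine2 hairpins, 7213 ± 786 with shSlpi-1 and 9670 ± 1755 with shSlpi-2. H3 summed to 3691 ± 515, 2713 ± 89.1, 2582 ± 124, 2704 ± 453 and 4100 ± 1136 in the same order of lines, and H4 to 5684 ± 625, 4450 ± 102, 4364 ± 95.7, 4336 ± 749 and 6553 ± 1368. H3 had the lowest ratio to control with both Serpine2 hairpins, 0.735 and 0.699, and H2B the highest, 0.874 and 0.837. With shSlpi-1 the lowest ratio was that of H2A, 0.723, and the highest that of H1, 0.822. Differences between classes were not tested. The H4 sum rests on Hist1h4d: without it the H4 ratio with shSerpine2-2 was 0.658 in place of 0.768. The order of classes depends on such genes. Without the highest member of each class, H4 had the lowest ratio with shSerpine2-1 (0.720), shSerpine2-2 (0.658) and shSlpi-1 (0.666).

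Members also differed together between the 2 libraries of a line. In shSlpi-2 all 56 tested members were higher in B than in A, by a median of 0.45 on the log2(normalized count + 1) scale, while 49.5% of all genes tested were. In shRenilla 50 of 56 were higher in B (median 0.19; 53.1% of all genes), and in shSlpi-1 only 4 were (median -0.28; 50.8% of all genes). In shSerpine2-1 32 of 56 members were higher in B (median 0.03; 51.2% of all genes), and in shSerpine2-2 23 of 56 (median -0.05; 48.6% of all genes). The counts of the Serpine2 lines are thus nearer the shares of all genes. Members thus shared shifts between the libraries of shRenilla, shSlpi-1 and shSlpi-2, so counts of members are not counts of independent results. The heat map of tested members shows both.

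**Figure D2:**
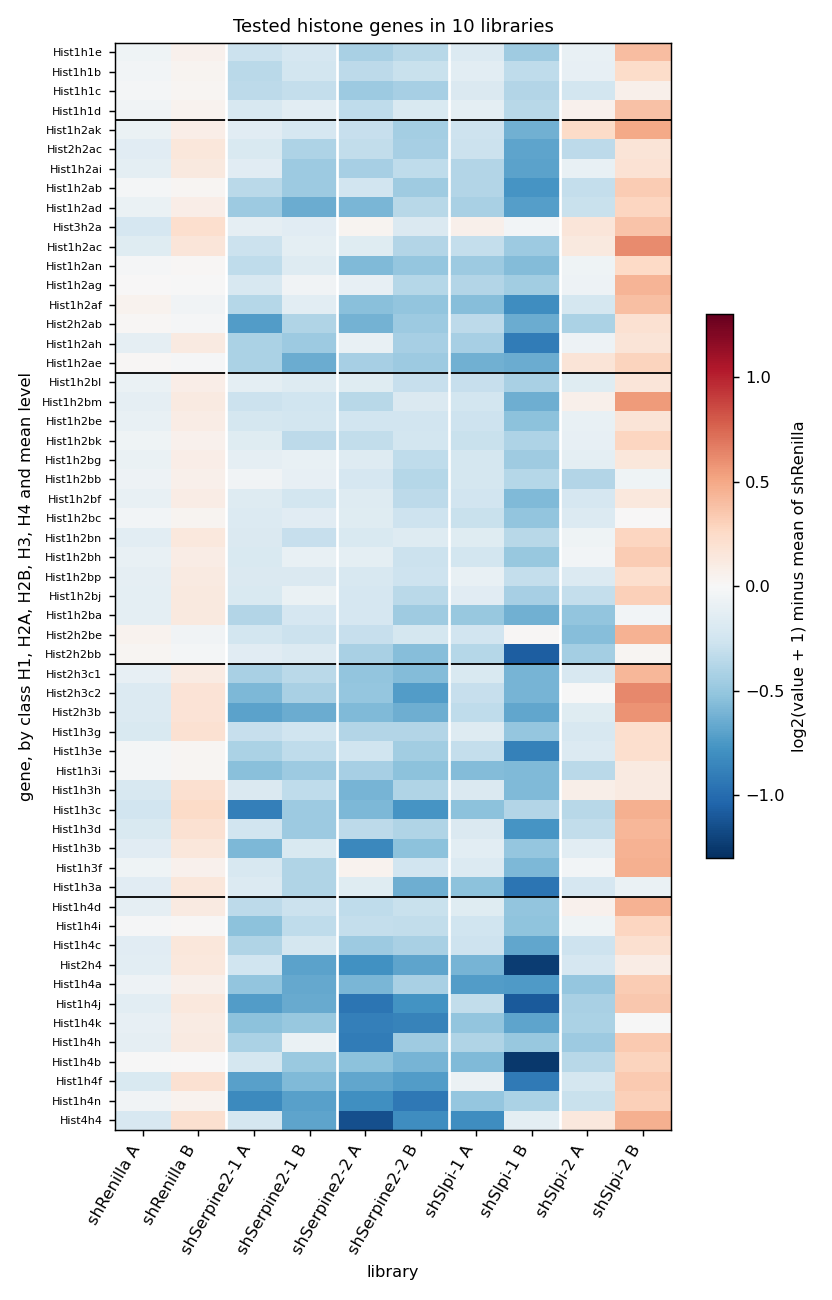
Each tested member (rows, by class and then mean level) in the 10 libraries (columns), as log2(normalized count + 1) minus the mean of shRenilla, with blue lower and red higher. The shSlpi-2 B column is red in nearly all rows, the shSlpi-1 B column is the bluest for many, and both Serpine2 lines are blue in nearly all rows.

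With shSerpine2-1, 7 of 56 tested members fell against shRenilla and 0 rose (limma, Benjamini-Hochberg adjusted p under 0.05 over all genes tested), while 5.38% of all genes fell and 5.09% rose. The 7 were Hist1h1b, Hist1h1c, Hist1h2ad, Hist1h2ae, Hist1h3i, Hist2h3b and Hist1h4i, named with their values known. The median difference over the 56 was -0.30 against -0.00 over all genes, and all 56 estimates were below 0, as were 50.3% of all genes. In 50 members both knockdown libraries lay below both control libraries, which was so for 29.1% of all genes. Class medians were -0.27 for H1, -0.30 for H2A, -0.18 for H2B, -0.38 for H3 and -0.47 for H4. With all libraries 24 members had an unadjusted p under 0.05. This count cannot be set against the shares of called genes above, which use the adjusted p. Without shRenilla library B 0 members were called and 1.49% of all genes fell, without library A 1 member and 2.75%, without shSerpine2-1 library A 0 and 2.02%, and without its library B 0 and 1.93%. Without shSerpine2-2 library A 3 members and 4.2% of all genes fell, and without its library B 4 and 4.27%. With both shSlpi-2 libraries out of the fit, 23 members and 10% of all genes fell.

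With shSerpine2-2, 24 of 56 members fell and 0 rose, where 13.4% of all genes fell and 14.2% rose. The calls were 3 of 4 H1 genes (Hist1h1b, Hist1h1c and Hist1h1e), 6 of 13 H2A, 1 of 15 H2B (Hist1h2bb), 7 of 12 H3 and 7 of 12 H4. The median difference was -0.38 against 0.00 over all genes, with class medians of -0.35 for H1, -0.38 for H2A, -0.25 for H2B, -0.49 for H3 and -0.69 for H4. All 56 estimates were below 0, as were 49.6% of all genes. Both libraries lay below both control libraries in 53 members and in 34% of all genes (35% of all genes lay above). Without shRenilla library A 13 members and 8.56% of all genes fell, without library B 2 and 5.98%, without shSerpine2-2 library A 4 and 7.53%, and without its library B 4 and 6.45%. With both shSlpi-2 libraries out of the fit, 44 members and 18.6% of all genes fell.

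Between the Serpine2 hairpins no tested member was called, where 7.69% of all genes were lower with shSerpine2-1 and 6.98% higher, 14.7% in all (limma, adjusted p under 0.05); limma voom on the recovered reads also called 0. The smallest limma adjusted p among members was 0.157. At an unadjusted p under 0.05 there was 1 member, a count that cannot be set against the shares above, which use the adjusted p. The median difference, shSerpine2-1 minus shSerpine2-2, was 0.07, with 15 of 56 estimates below 0 against 51.9% of all genes, and single members ranged from -0.20 to 0.52. A p that misses the threshold does not show equal levels: fitted to the 4 libraries of these lines alone, the test called 3 of 56 members higher with shSerpine2-1 and 0 lower, where 13.8% of all genes were higher and 15.4% lower, so this count is under the share of all genes.

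With shSlpi-1, 29 of 56 members fell and 0 rose, where 9.88% of all genes fell and 7.65% rose. The calls were 1 of 4 H1 genes (Hist1h1c), 9 of 13 H2A, 10 of 15 H2B, 3 of 12 H3 (Hist1h3a, Hist1h3e and Hist1h3i) and 6 of 12 H4. The median difference was -0.44 against 0.00 over all genes, with class medians of -0.27 for H1, -0.52 for H2A, -0.36 for H2B, -0.45 for H3 and -0.48 for H4. Of the 56 estimates 55 were below 0, as were 49.2% of all genes, and that of Hist3h2a was 0.02. Both libraries lay below both control libraries in 47 members and in 30.4% of all genes (29.9% of all genes lay above). With both shSlpi-2 libraries out of the fit, 45 members and 14.8% of all genes fell. The count of 29 rested on single libraries: without shSlpi-1 library B 1 member and 4.41% of all genes fell, without shRenilla library B 1 and 3.8%, and without shRenilla library A 10 and 5.88%.

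With shSlpi-2, 1 member was called, Hist1h2ak, which rose, where 21.9% of all genes fell and 20.4% rose. The median difference was 0.04 against -0.01 over all genes, and 20 of 56 estimates were below 0, against 51.1% of all genes. Both libraries lay above both controls in 3 members and in 32.3% of all genes, below both in 0 members and in 34.4% of all genes, and overlapped with the controls in the other 53. The outcome turned on which library was kept: without library A 15 of 56 members were called, all higher, with a median of 0.29, and without library B 7 were called, 6 lower and 1 higher, with a median of -0.18. Without library A 21.5% of all genes were higher and 23.3% lower, and without library B 19.5% were higher and 21.5% lower, so the 15 are near the share of all genes and the 6 under it.

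The Slpi hairpins differed directly. Of 56 members, 36 were lower with shSlpi-1 than with shSlpi-2 and 0 were higher, where 12.3% of all genes were lower and 13.7% higher. The calls were 3 of 4 H1 genes (Hist1h1b, Hist1h1d and Hist1h1e), 10 of 13 H2A, 9 of 15 H2B, 8 of 12 H3 and 6 of 12 H4. The median difference was -0.51, with class medians of -0.38 for H1, -0.60 for H2A, -0.36 for H2B, -0.52 for H3 and -0.57 for H4. Both shSlpi-1 libraries lay below both shSlpi-2 libraries in 39 members and in 28% of all genes (30.1% of all genes lay above). All 56 estimates were below 0, as were 49.7% of all genes. Summed counts were 1.41 times as high with shSlpi-2, and 1.39 times when scaled to the reads of each library other than those of Rn45s. Without shSlpi-1 library B 6 members and 5.76% of all genes were called lower, without shSlpi-2 library B 18 and 13.4%, and without shSlpi-2 library A 53 and 15.7%, with 0 members higher each time. The medians were then -0.33, -0.25 and -0.73. Fitted to the 4 libraries of these lines alone, 11 members and 4.69% of all genes were called lower.

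**Figure D3:**
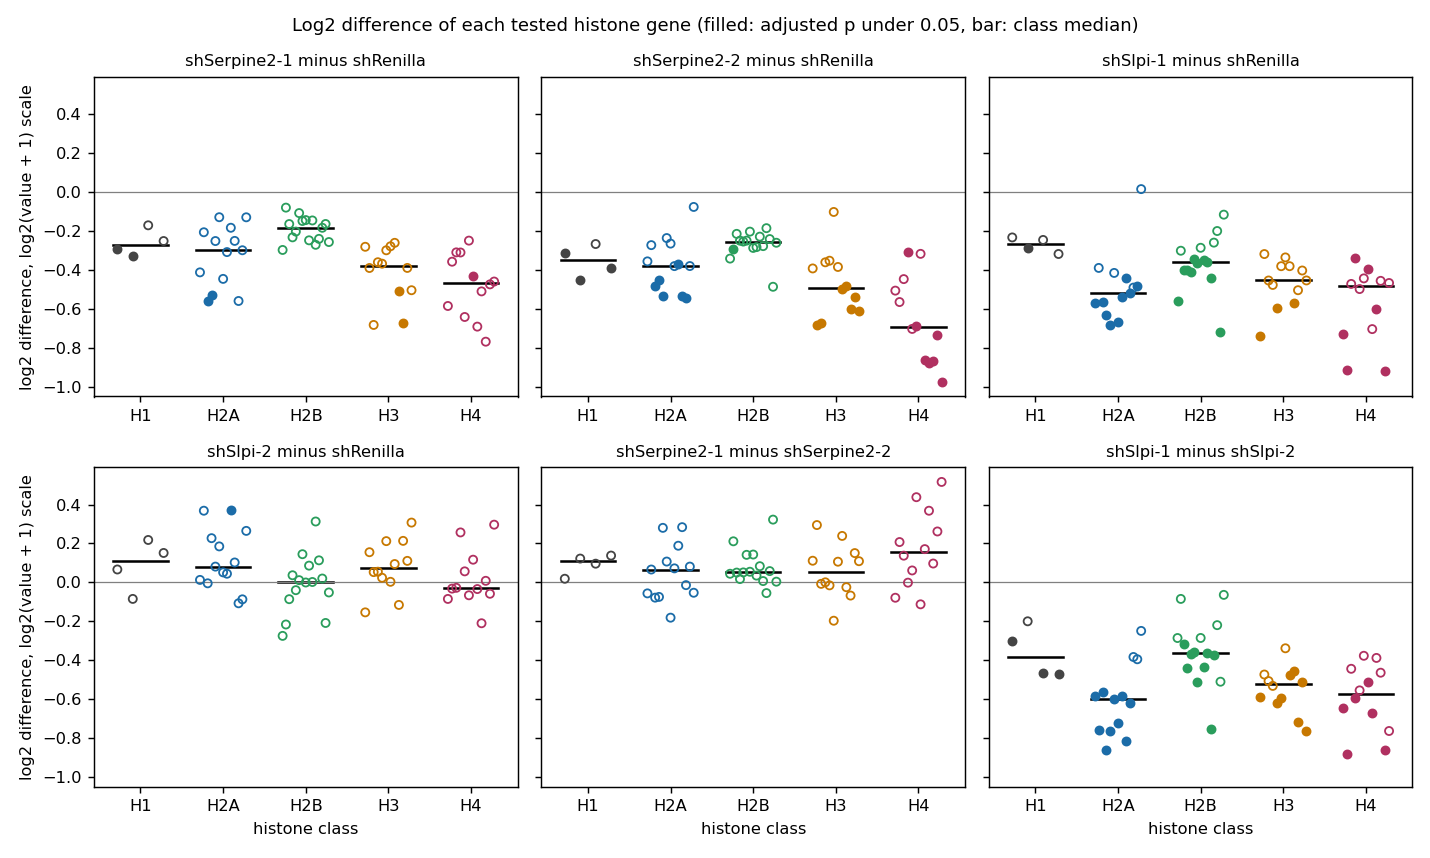
Log2 difference of each tested member (vertical axis, log2(normalized count + 1) scale) by class (horizontal axis) in the 6 comparisons, with filled points for an adjusted p under 0.05 and a bar at the class median. All points lie below 0 for both Serpine2 hairpins against shRenilla and for shSlpi-1 against shSlpi-2, and points lie on both sides of 0 for shSlpi-2 against shRenilla.

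Among linker histones, Hist1h1e measured 4602 and 4941 normalized counts in shRenilla, 3919 and 4095 in shSerpine2-1, 3568 and 3715 in shSerpine2-2, 4214 and 3472 in shSlpi-1, and 4450 and 6301 in shSlpi-2. Only the shSlpi-2 libraries overlapped the controls, with A below and B above both. It fell with shSerpine2-2 (-0.39, SE 0.11, limma adjusted p = 0.0166) and was lower with shSlpi-1 than with shSlpi-2 (-0.47, SE 0.11, limma adjusted p = 0.00595). The annotated spans of Hist1h1e and Hist1h2be overlap in part. Both genes lie on the minus strand, so no strand setting of the counting would separate reads of the shared stretch, and their reads are uncertain. Hist1h1c measured 1280 and 1321 in shRenilla, 1025 and 1046 in shSerpine2-1, 936 and 966 in shSerpine2-2, 1138 and 1001 in shSlpi-1, and 1105 and 1361 in shSlpi-2. It fell with shSerpine2-1 (-0.33), shSerpine2-2 (-0.45, SE 0.08, limma adjusted p = 0.00105) and shSlpi-1 (-0.28), while the difference between the Slpi hairpins did not pass the test (-0.20, limma adjusted p = 0.0926). Hist1h1b ranged from 1586 to 1719 in the Serpine2 lines, below 1977 and 2073 in shRenilla, and fell with both hairpins (-0.29 and -0.31). Hist1h1d, at 611 and 654 in shRenilla, was 578 and 492 in shSlpi-1 and 659 and 821 in shSlpi-2, and of its 6 comparisons the 1 between Slpi hairpins was called (-0.46, SE 0.10, limma adjusted p = 0.00336).

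Among H2A genes, Hist1h2ak measured 1049 and 1176 normalized counts in shRenilla, 1001 and 955 in shSerpine2-1, 900 and 819 in shSerpine2-2, 923 and 722 in shSlpi-1, and 1317 and 1563 in shSlpi-2. Both shSlpi-2 libraries were above, and the 6 libraries of the other knockdown lines below, both controls. It rose with shSlpi-2 (0.37, SE 0.10, limma adjusted p = 0.00813), fell with shSlpi-1 (-0.44, limma adjusted p = 0.00701), and had the smallest p of all members between the Slpi hairpins (-0.81, SE 0.10, limma adjusted p = 4.42e-05). Hist1h2ae, at 131 and 128 in shRenilla, measured 96.9 and 82.4 in shSerpine2-1, 95.7 and 92.7 in shSerpine2-2, 83.7 and 82.2 in shSlpi-1, and 145 and 158 in shSlpi-2. It fell with both Serpine2 hairpins (-0.53 and -0.45) and with shSlpi-1 (-0.63), and differed between the Slpi hairpins by -0.86 (SE 0.14, limma adjusted p = 0.000473). Hist2h2ac, whose stem-loop has a form of its own, had 511 and 625 in shRenilla, 465 and 352 in shSlpi-1, and 447 and 633 in shSlpi-2. It fell with shSlpi-1 (-0.48, limma adjusted p = 0.0348) and was not called in the other 5 comparisons. Hist1h2ai, at 214 and 255 in shRenilla and 179 and 144 in shSlpi-1, fell with shSlpi-1 by 0.54.

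Among H2B genes, Hist1h2bm measured 1313 and 1536 normalized counts in shRenilla, 1168 and 1185 in shSerpine2-1, 1105 and 1242 in shSerpine2-2, 1200 and 913 in shSlpi-1, and 1488 and 2092 in shSlpi-2. Its shSlpi-2 B value is the highest of the 10, and it differed between the Slpi hairpins by -0.75 (SE 0.13, limma adjusted p = 0.000669). Hist1h2bl, the H2B gene with the highest mean, measured 1537 and 1736 in shRenilla, 1497 and 1457 in shSerpine2-1, 1460 and 1331 in shSerpine2-2, 1326 and 1224 in shSlpi-1, and 1466 and 1826 in shSlpi-2. It fell with shSlpi-1 (-0.36, SE 0.09, limma adjusted p = 0.00983), and its differences of -0.15 and -0.23 with the Serpine2 hairpins did not pass the test. Hist1h2be, which GENCODE gives 5 exons over a span that overlaps Hist1h1e, fell with shSlpi-1 by 0.40. Hist1h2bb, named as the 1 H2B call with shSerpine2-2, went from 587 and 647 to 531 and 477 (-0.29, limma adjusted p = 0.0424).

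The 3 H3 genes with the highest means lie in the Hist2 cluster and are near-identical copies, so their separate values are uncertain. Hist2h3c2 measured 627 and 798 normalized counts in shRenilla, 471 and 527 in shSerpine2-1, 500 and 427 in shSerpine2-2, 573 and 465 in shSlpi-1, and 705 and 1087 in shSlpi-2. It fell with shSerpine2-2 (-0.61, SE 0.16, limma adjusted p = 0.00921) and differed between the Slpi hairpins (-0.76, limma adjusted p = 0.00244). Hist2h3b, at 440 and 562 in shRenilla, measured 307 and 317 in shSerpine2-1 and 334 and 321 in shSerpine2-2, and fell with both (-0.67 and -0.60). Hist2h3c1 measured 736 and 855 in shRenilla, 556 and 535 in shSerpine2-2 and 691 and 521 in shSlpi-1, and fell with shSerpine2-2 (-0.54, limma adjusted p = 0.0149). Restricting the H3 sum to the 5 genes with mostly unique windows gave ratios to control of 0.775 and 0.758 with the Serpine2 hairpins, 0.742 with shSlpi-1 and 1.03 with shSlpi-2.

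Among H4 genes, which encode one of the most conserved core histones, Hist1h4d measured 3907 and 4600 normalized counts in shRenilla, 3352 and 3488 in shSerpine2-1, 3381 and 3464 in shSerpine2-2, 3796 and 2967 in shSlpi-1, and 4411 and 5815 in shSlpi-2. It fell with shSerpine2-2 (-0.31, SE 0.11, limma adjusted p = 0.0497) and shSlpi-1 (-0.34, limma adjusted p = 0.0472), both close to the threshold, and differed between the Slpi hairpins (-0.59, limma adjusted p = 0.00116). Hist1h4i, with the rarer stem-loop shown above, measured 268 and 273 in shRenilla, 187 and 215 in shSerpine2-1, 218 and 216 in shSerpine2-2, 226 and 187 in shSlpi-1, and 261 and 330 in shSlpi-2. It fell with shSerpine2-1 (-0.43, SE 0.13, limma adjusted p = 0.0414) and shSlpi-1 (-0.39, limma adjusted p = 0.0437). Hist1h4c, at 180 and 223 in shRenilla, was 144 and 149 in shSerpine2-2 and 166 and 125 in shSlpi-1, and was called in none of the 6 comparisons. The other H4 genes were lower in level, and with shSerpine2-2 the class ranged from -0.98 to -0.31.

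H2A and H2B genes are often arranged head to head around a shared promoter region. Under a limit of 1000 bases, 13 such pairs were found in the annotation, with 173 to 306 bases between the genes, and in 9 of them both genes were tested. Hist1h2ak and Hist1h2bn, for example, lie 296 bases apart. Within a pair the H2A gene had the lower difference in 9 of 9 pairs between the Slpi hairpins (medians -0.62 for H2A and -0.36 for H2B), in 8 of 9 for shSlpi-1 against shRenilla (-0.52 and -0.35), and in 7 of 9 for each Serpine2 hairpin. With shSlpi-2 it was the lower one in 2 of 9 pairs. The pairs share the same libraries, and the difference within pairs was not tested.

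The counts for gene lists that follow are to be read against all genes tested, of which 5.09% rose and 5.38% fell with shSerpine2-1, 14.2% and 13.4% with shSerpine2-2, 7.65% and 9.88% with shSlpi-1, and 20.4% and 21.9% with shSlpi-2. Slbp, which binds the stem-loop, measured 1619 and 1605 normalized counts in shRenilla and between 1534 and 1801 in the knockdown libraries, and was called in none of the 6 comparisons. Npat, the activator of histone gene transcription at histone locus bodies, was 3551 and 3616 in shRenilla, 3136 and 3090 in shSerpine2-2, and 2414 and 2728 in shSlpi-2, and fell in these 2 lines (-0.20 and -0.48). Casp8ap2, another component of histone locus bodies, fell with shSlpi-2 (-0.21). Of 27 tested genes for histone mRNA transcription, processing and decay, 2 rose and 1 fell with shSerpine2-1, 8 and 4 with shSerpine2-2, 1 and 3 with shSlpi-1, and 5 and 7 with shSlpi-2. Apart from the 8 that rose with shSerpine2-2, these counts are near or under the shares of all genes. Of 19 tested histone chaperones and importins, 5 rose and 0 fell with shSerpine2-1, 7 and 2 with shSerpine2-2, 2 and 0 with shSlpi-1, and 10 and 2 with shSlpi-2. The 2 that fell with shSerpine2-2 and the 2 that rose with shSlpi-1 are near the shares of all genes. Chaf1a, the large subunit of the chaperone that deposits H3 and H4 on new DNA, rose in all 4 lines against the shared control (0.30, 0.47, 0.27 and 0.50).

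More S phase genes rose than fell in each line. Against the shares of all genes given above, of 45 tested 10 rose and 0 fell with shSerpine2-1, 18 and 1 with shSerpine2-2, 12 and 1 with shSlpi-1, and 19 and 7 with shSlpi-2, with medians of 0.13, 0.12, 0.10 and 0.08. E2f1, a transcription factor of S phase entry named after its values were seen, rose in all 4 lines (0.31, 0.66, 0.57 and 0.62). Pcna, the sliding clamp of DNA polymerase, was lower with shSlpi-1 than with shSlpi-2, as the histone genes were. It measured 4082 and 4201 in shRenilla, 3836 and 3500 in shSlpi-1, and 4841 and 4822 in shSlpi-2 (hairpin difference -0.40, SE 0.05, limma adjusted p = 4.54e-05). The S phase list as a whole did not share this direction. Of its 45 genes 10 were lower and 7 higher with shSlpi-1 than with shSlpi-2, and 28 were not called. The median was 0.02, and 12.3% of all genes were lower and 13.7% higher. Of 24 genes of G2 and mitosis, 4 rose and 0 fell with shSerpine2-1, 4 and 4 with shSerpine2-2, 3 and 0 with shSlpi-1, and 6 and 9 with shSlpi-2, and with shSerpine2-2 these counts are near the shares of all genes given above. Mki67, a marker of cycling cells, fell with shSerpine2-2 (-0.17).

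Variant histones outside the clusters, whose mRNAs mostly carry poly(A) tails, differed from one another. H2afx, whose transcript also holds the stem-loop, measured 1656 and 1851 normalized counts in shRenilla, 1676 and 1511 in shSlpi-1, and 1959 and 2701 in shSlpi-2. It rose with shSlpi-2 (0.39, SE 0.10, limma adjusted p = 0.00597) and differed between the Slpi hairpins (-0.53, limma adjusted p = 0.00155), with library B above A in shSlpi-2 and below A in shSlpi-1, as in the clustered genes. H2afz, at 10476 and 11288 in shRenilla, ranged from 9190 to 9597 in shSerpine2-1, shSerpine2-2 and shSlpi-1 and fell in these 3 lines (-0.21, -0.20 and -0.21). H3f3b, which encodes the replication-independent H3.3, had 5974 and 5951 in shRenilla and 3319 and 3483 in shSlpi-2 (-0.81, SE 0.05, limma adjusted p = 2.25e-09). H1f0 was called in no comparison.

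Other RNAs without a canonical poly(A) tail were measured beside the histone genes. Rmrp, the RNA of a ribonuclease, measured 254 and 235 normalized counts in shRenilla, 160 and 163 in shSerpine2-1, 106 and 104 in shSerpine2-2, 106 and 84.3 in shSlpi-1, and 139 and 279 in shSlpi-2. Its highest library was shSlpi-2 B and its lowest shSlpi-1 B, as for the histone sums. It fell with shSerpine2-2 (-1.21, SE 0.22, limma adjusted p = 0.000838) and shSlpi-1 (-1.36, limma adjusted p = 0.000548), and differed between the Slpi hairpins (-1.05, limma adjusted p = 0.00233). Terc, the telomerase RNA, which was chosen after its values were seen, also had its highest value in shSlpi-2 B (70.1) and its lowest in shSlpi-1 B (12.5), and was called in no comparison. Rn45s was high in both shSlpi-2 libraries. Malat1, whose transcript ends without a canonical tail, fell with shSerpine2-1 (-0.32), shSerpine2-2 (-0.75) and shSlpi-2 (-0.81) and differed by 0.03 with shSlpi-1, which was not called. The part of these RNAs in the histone differences was not tested.

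**Figure D4:**
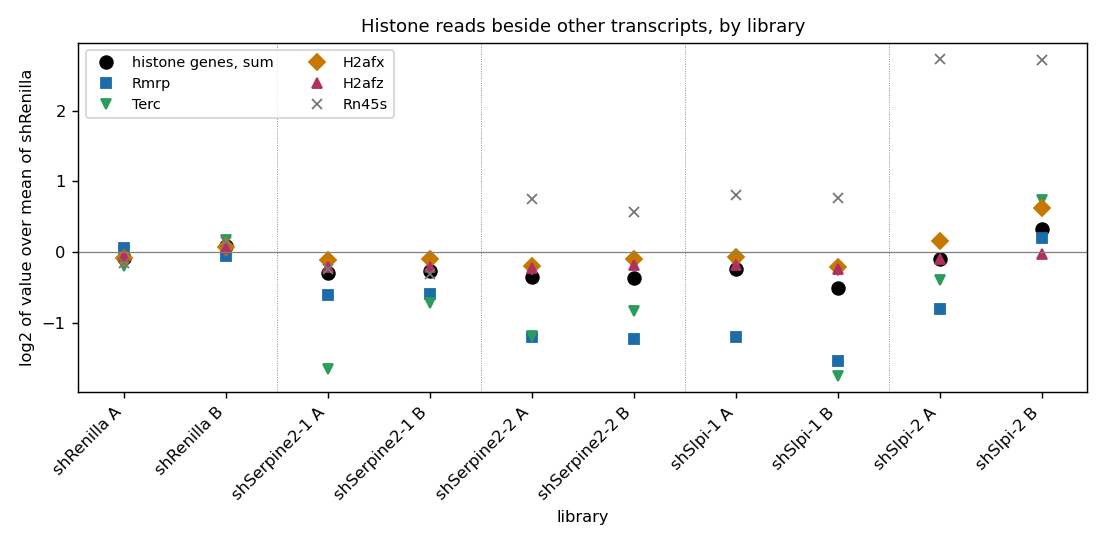
Log2 of each library's value over the mean of shRenilla (vertical axis) for the histone sum and for Rmrp, Terc, H2afx, H2afz and Rn45s in the 10 libraries (horizontal axis). The histone sum, Rmrp, Terc and H2afx are higher in library B than in A of shSlpi-2 and lower in B than in A of shSlpi-1, while Rn45s is high in both shSlpi-2 libraries.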

How the data were processed

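The table holds 10 libraries of 5 lines. The authors deposited log2 values per gene. Bowtie2, HTSeq, DESeq and mm10 are named in the submitters' processing notes, with versions and settings not given in the sources used here. From the values, the log2 numbers the authors deposited were taken as DESeq's variance-stabilized counts, which no source states: inverted, 100% of values under 100000 reads came out as whole reads within 0.01, which gave normalized counts and depth. Members and lists were chosen with earlier results of these data known.

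Genes with a mean of at least 10 normalized counts were tested with limma 3.58.1 in R 4.3.3 (eBayes with trend, 2-sided) on log2(normalized count + 1), all 5 lines in 1 fit, Benjamini-Hochberg over 12299 genes at 0.05. The script was tested on simulated data. Members named are the 3 highest of each class, the 5 called with the smallest p between hairpins and all tested H1 genes. From other lists, up to 4 calls with the smallest p and genes named for their role were taken. Other names (Hist1h2ad, Hist1h2bb, Hist1h3a, Hist1h3e, Hist1h3i, Hist3h2a, E2f1, Terc) were chosen after their values were seen. Alternatives were another pseudocount, no or a stricter filter, the deposited values, quantile scaling, scaling without Rn45s, voom, the 4 libraries compared, the replicate block and each library left out. No label says that letters A and B pair libraries. Over all genes tested, correlations between lines of the A minus B differences lay between -0.07 and 0.07. They cannot exclude a shared preparation, since noise of single genes lowers such correlations. Proteins were not used here.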

Additional observations from a re-analysis of the deposited data

Results flagged for a closer look

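The Slpi hairpins differed from each other in a direct test: 36 of 56 tested histone genes were lower with shSlpi-1 than with shSlpi-2 (limma, adjusted p under 0.05). Of all genes tested 12.3% were lower and 13.7% higher. The 5 with the smallest p were Hist1h2ak (-0.81), Hist1h2ae (-0.86), Hist1h2bm (-0.75), Hist1h4d (-0.59) and Hist2h3c2 (-0.76), each a log2 difference of shSlpi-1 minus shSlpi-2, with both libraries of shSlpi-1 below both of shSlpi-2. The count went well down without shSlpi-1 library B and well up without shSlpi-2 library A, and the share of all genes called lower moved the same way. With 1 library left out, the median histone difference ranged from -0.73 to -0.25.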

How the results depend on the processing

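The direction of the median histone difference was the same under every alternative tried in 5 comparisons, and changed for shSlpi-2 against shRenilla when single libraries were left out. Without a filter on low values, 0, 4 and 5 members were called for shSerpine2-1, shSerpine2-2 and shSlpi-1 against shRenilla and 18 between the Slpi hairpins. Of all genes, 1.6%, 5.07%, 3.72% and 8.78% were then called lower. With only the 4 libraries compared, the calls were 29, 46, 45 and 11 in that order and 3 between the Serpine2 hairpins. The shares of all genes called lower were then 10.8%, 19.2%, 13.6% and 4.69%. Between the Serpine2 hairpins 15.4% of all genes were lower and 13.8% higher. After quantile normalization 4 members, and with voom 3, were called for shSerpine2-1, where 4.91% and 4.76% of all genes fell. Both counts are near these shares. Leaving both shSlpi-2 libraries out of the fit, an alternative chosen after seeing the data, gave 23, 44 and 45 calls against shRenilla and 1 between the Serpine2 hairpins. Against shRenilla 10%, 18.6% and 14.8% of all genes then fell. Between the Serpine2 hairpins 13.6% of all genes were lower and 12.3% higher. On the deposited values the shSerpine2-2 median was -0.23. The replicate block gave 7, 24, 29 and 1 calls against shRenilla, 0 between the Serpine2 hairpins and 35 between the Slpi hairpins. With it 5.16%, 13.1%, 9.78% and 21.7% of all genes fell against shRenilla, and 4.76%, 14.1%, 7.66% and 20.4% rose. Between the Serpine2 hairpins 7.88% of all genes were lower and 6.89% higher, and between the Slpi hairpins 12.3% and 13.6%. Scaled without Rn45s, the Hist1h2bm difference between Serpine2 hairpins was -0.00223 in place of 0.01.

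With 1 library left out, the lone library is assumed to vary like the others. Calls then ranged from 0 to 23 for shSerpine2-1, 2 to 46 for shSerpine2-2, 1 to 45 for shSlpi-1, 0 to 15 for shSlpi-2, 0 to 1 between the Serpine2 hairpins and 6 to 53 between the Slpi hairpins. Medians ranged from -0.41 to -0.20, -0.47 to -0.29, -0.57 to -0.29, -0.18 to 0.29, 0.04 to 0.11 and -0.73 to -0.25. The shares of all genes called also moved with the library left out, so these ranges of calls are not results about histone genes alone. The shSlpi-2 libraries are no part of the comparisons of shSerpine2-1, shSerpine2-2 and shSlpi-1 with shRenilla. Leaving both out of the fit raised the shares of all genes that fell there, from 5.38%, 13.4% and 9.88% to 10%, 18.6% and 14.8%. With 2 libraries a line, precision is limited by the spread between libraries. For shSlpi-2 against shRenilla the estimates of named members changed sign with 1 library left out, with ranges of -0.10 to 0.40 for Hist1h1e, -0.11 to 0.24 for Hist1h1b, -0.23 to 0.065 for Hist1h1c, -0.34 to 0.16 for Hist2h2ac, -0.0946 to 0.18 for Hist1h2ai, -0.16 to 0.16 for Hist1h2bl, -0.096 to 0.17 for Hist1h2be, -0.21 to 0.43 for Hist2h3c1, -0.0052 to 0.62 for Hist2h3c2, -0.16 to 0.58 for Hist2h3b, -0.0511 to 0.28 for Hist1h4i and -0.27 to 0.21 for Hist1h4c. Between the Serpine2 hairpins the ranges of members that changed sign were -0.039 to 0.077 for Hist1h1b, -0.023 to 0.18 for Hist2h2ac, -0.088 to 0.23 for Hist1h2ai, -0.078 to 0.091 for Hist1h2bm, -0.00364 to 0.22 for Hist2h3c2, -0.0301 to 0.0273 for Hist1h4d and -0.19 to 0.041 for Hist1h2ae.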
